A study of Homo sapiens with 8 samples.

Results

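The macroH2A1 domains of human chromosome 2 are described here: every broad enriched domain placed on that chromosome in the 4 domain lists that the authors deposited, 1 per library, and every chromosome 2 region in their table of differential regions. This gave 2559 of 31673 domains (690 and 764 in the siControl libraries, 534 and 571 in the siANP32B libraries, replicates 1 and 2 in that order throughout) and 327 of 4474 tested regions. The cells were HepG2, a human hepatoblastoma line widely used as a liver model, transfected either with a control siRNA (siControl) or with an siRNA against the histone chaperone ANP32B (siANP32B). Chromatin was profiled 3 days later from cryopreserved cells by CUT&RUN, in which an antibody, here against macroH2A1, tethers a nuclease that releases the bound DNA. Each siRNA had 2 anti-macroH2A1 libraries. Whether the replicates are separate cultures is not in the labels, so spreads may be technical. A further 4 IgG libraries were not analysed here. All groups share 1 cell line and 1 time, and domain lists hold no expression, so the labelled cell type could not be checked against marker levels. The depth of the libraries is unknown.

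MacroH2A1 is a variant of histone H2A that carries a large globular macro domain joined to the histone fold by a linker. It is known for wide blocks of chromatin of low transcriptional activity, among them the inactive X chromosome, and for marking developmental and tissue-specific genes that a cell keeps quiet. ANP32B belongs to a family of acidic proteins with leucine-rich repeats, some of which bind and hand over histones. The comparison addresses whether lowering ANP32B changes where macroH2A1 lies, here along 1 long chromosome.

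The promoters below show the range of sequence on which the domains lay. Each line gives the 250 bases before the gene start that the RefSeq promoter table uses on GRCh38.p14 (the assembly of hg38), written 5′ to 3′ on the strand of the gene, with capitals on every CpG dinucleotide. The SLC25A12 promoter (chr2:171894245-171894494, minus strand) was the only matched protein-coding promoter of the chromosome inside a region called higher after siANP32B. The promoters of UGT1A4 (chr2:233718486-233718735, plus strand), CCL20 (chr2:227813592-227813841, plus strand) and IL1R2 (chr2:101998711-101998960, plus strand) lay inside regions called lower and inside domains of all 4 libraries. The CXCR4 promoter (chr2:136118150-136118399, minus strand) lay in domains of both siANP32B libraries and neither siControl library. Those siANP32B domains were weak, and their scores are given with the immune genes below. The CMKLR2 promoter (chr2:206213372-206213621, minus strand) lay in domains of both siControl libraries and neither siANP32B library.
SLC25A12: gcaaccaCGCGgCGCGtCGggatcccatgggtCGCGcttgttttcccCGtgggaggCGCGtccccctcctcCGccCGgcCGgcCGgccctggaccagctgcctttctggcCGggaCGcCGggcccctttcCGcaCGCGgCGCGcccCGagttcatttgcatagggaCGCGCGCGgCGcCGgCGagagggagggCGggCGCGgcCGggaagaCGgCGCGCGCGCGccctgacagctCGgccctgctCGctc
UGT1A4: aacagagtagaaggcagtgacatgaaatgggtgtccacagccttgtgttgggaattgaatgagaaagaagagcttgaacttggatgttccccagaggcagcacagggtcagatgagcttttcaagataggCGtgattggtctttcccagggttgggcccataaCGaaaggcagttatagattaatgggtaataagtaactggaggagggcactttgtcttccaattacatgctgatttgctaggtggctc
CCL20: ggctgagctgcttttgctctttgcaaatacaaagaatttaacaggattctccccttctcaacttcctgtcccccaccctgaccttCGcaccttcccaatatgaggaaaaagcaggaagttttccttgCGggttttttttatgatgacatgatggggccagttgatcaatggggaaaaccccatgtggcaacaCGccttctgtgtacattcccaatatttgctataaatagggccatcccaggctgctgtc
IL1R2: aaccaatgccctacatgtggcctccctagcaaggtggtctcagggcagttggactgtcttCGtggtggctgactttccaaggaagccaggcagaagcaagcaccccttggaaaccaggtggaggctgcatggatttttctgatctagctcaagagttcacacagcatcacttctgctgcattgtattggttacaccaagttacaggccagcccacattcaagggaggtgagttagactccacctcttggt
CXCR4: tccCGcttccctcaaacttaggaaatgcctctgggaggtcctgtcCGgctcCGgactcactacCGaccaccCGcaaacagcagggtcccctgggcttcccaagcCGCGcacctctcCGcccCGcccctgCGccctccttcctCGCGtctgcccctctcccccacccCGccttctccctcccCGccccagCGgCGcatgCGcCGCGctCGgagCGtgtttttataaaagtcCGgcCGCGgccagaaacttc
CMKLR2: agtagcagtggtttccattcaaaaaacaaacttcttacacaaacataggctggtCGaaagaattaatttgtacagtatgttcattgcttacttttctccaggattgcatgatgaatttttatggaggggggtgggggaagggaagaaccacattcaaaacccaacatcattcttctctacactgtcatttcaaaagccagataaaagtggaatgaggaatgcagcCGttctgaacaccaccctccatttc
For IL1R2 and CMKLR2 the start used lies 7.001 and 4.54 kb inside the annotated gene span, and for the other 4 genes it is the span's own start. The SLC25A12 stretch holds 42 CpG and the CXCR4 stretch 24. The CCL20 stretch holds 3, the UGT1A4 and CMKLR2 stretches 2 each, and the IL1R2 stretch 1.

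Chromosome 2 was among the chromosomes most covered by macroH2A1 domains, and after siANP32B its domains were fewer, longer and together covered more sequence. Domains covered 60.8 and 57.3 Mb of the chromosome in siControl and 70.6 and 71.8 Mb in siANP32B, that is 59.0 ± 2.43 Mb against 71.2 ± 0.834 Mb (SD, n = 2). As shares of the chromosome these were 25.1% and 23.7% in siControl against 29.2% and 29.6% in siANP32B. Both siANP32B libraries lay above both siControl libraries. The other chromosomes together were covered over 16.1% and 14.4% in siControl and 17.3% and 17.1% in siANP32B. In each library chromosome 2 thus held 11.7% to 12.8% of all domain sequence, although it makes up 7.84% of the counted genome.

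By mean siControl share, chromosome 2 ranked 4 of 24, after chromosomes 20, 17 and 19. By the change in share it ranked 3, after chromosomes 16 and 20. HepG2 is known to carry extra copies of chromosomes 2, 14, 16, 17 and 20 and of part of 6, and copy number was not measured here. On chromosome 20 the shares were 33.4% and 34.7% in siControl against 44.7% and 36.8% in siANP32B, and on chromosome 16 24.5% and 23.8% against 33.9% and 29.5%. Chromosome 17 had 30.7% and 27.7% against 36.0% and 31.3%, and chromosome 6 had 24.8% and 23.5% against 27.0% and 28.4%. On these 4 chromosomes, as on chromosome 2, both siANP32B shares were above both siControl shares, and the 5 together are those with the largest changes. Chromosome 14 had 15.7% and 14.5% against 14.2% and 16.5%. The part of copy number in the values of chromosome 2 was not tested. Domains of chromosome 2 were long compared with the rest pooled. Their median length was 59 and 51 kb in siControl and 93.5 and 84 kb in siANP32B, against 37 to 46 kb on the other chromosomes pooled in the 4 libraries. Chromosome 20 had longer ones (111, 108, 317 and 203 kb), and those of chromosome 6 (51, 47, 79 and 74 kb), 16 (49, 50, 78 and 73 kb) and 17 (48.5, 52, 71.5 and 66 kb) were nearly as long. On chromosome 2, domains longer than 200 kb numbered 67 and 52 in siControl and 106 and 111 in siANP32B, whereas those under 10 kb numbered 25 and 18 against 10 and 11. The shift was therefore from short domains to long ones.

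The covered share of chromosome 2 minus that of the other chromosomes was 8.97 and 9.26 percentage points in siControl and 11.8 and 12.5 in siANP32B, a difference of 3.06 points. The groups did not overlap in this value, in domain number, in covered length or in median length, and each gave p = 0.333 by an exact permutation test (two-sided), the smallest that 2 libraries against 2 allow. The caller's score, whose scale is not stated in the files, had medians on chromosome 2 of 62.5 and 72.1 in siControl and 44.1 and 46.3 in siANP32B, against 91.3, 100.3, 71.5 and 69.1 over the other chromosomes pooled. On chromosome 20 it was 53.1, 62.6, 37.1 and 46.2, and on chromosome 6 68.9, 79.3, 51.7 and 49.9, so a low score was not particular to chromosome 2. When only domains above 1 common score were kept, the difference in covered length turned to -11.2 Mb and that in share against the other chromosomes to -1.86 points. When an equal number of best-scored domains per library was kept, the same differences were 24.2 Mb and 6.52 points. The part of score and depth in the gain was not tested.

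**Figure D1:**
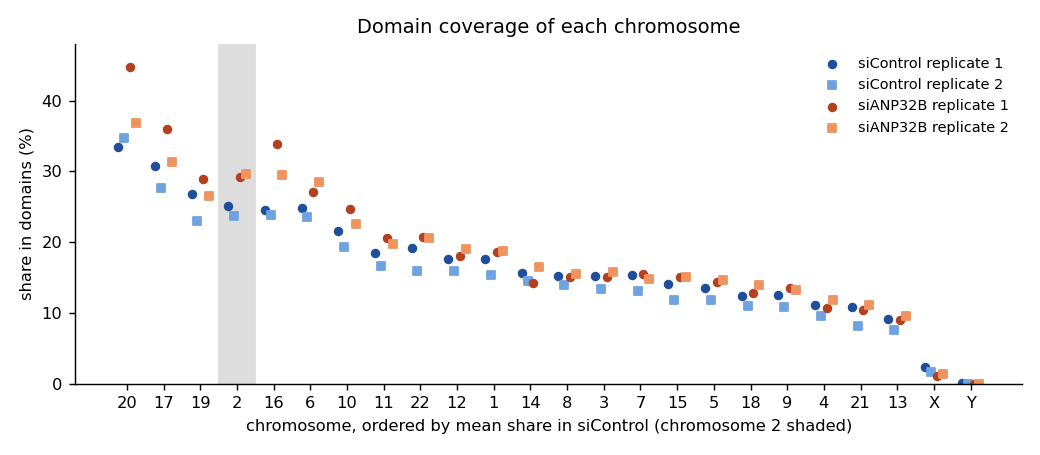
Share of each chromosome in macroH2A1 domains (vertical axis, percent), with chromosomes ordered by mean siControl share; each point is 1 library, and chromosome 2 is shaded. On chromosome 2 the 2 siANP32B points (29.2% and 29.6%) lie above the 2 siControl points (25.1% and 23.7%).

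Along the chromosome the coverage was uneven, and the gain was spread over most of its length. In steps of 10 Mb the mean siControl share ran from 8.15% at 50 to 60 Mb to 43.7% at 230 to 240 Mb, near the end of the long arm. The mean of the siANP32B libraries was higher in 25 of 25 steps, though by only 0.01 points at 160 to 170 Mb. In 13 of the 25 the difference in means exceeded the largest gap between libraries of the same group. Both siANP32B libraries were above both siControl libraries in 14 of them (56.0%), both were below in 0 (0.00%), and the groups overlapped in 11. In the 285 steps of the other chromosomes the corresponding shares were 40.7% above and 8.77% below. With 5 Mb steps, 29 of 49 (59.2%) had both siANP32B libraries above and 1, at 210 to 215 Mb, had both below. The siANP32B mean was higher in 44 of these 49 steps.

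The largest gain lay at 60 to 70 Mb, where the covered share was 27.2% and 26.1% in siControl against 38.2% and 39.7% in siANP32B, a mean difference of 12.3 points. At 170 to 180 Mb the shares were 34.6% and 31.7% against 44.8% and 43.1%. At 130 to 140 Mb, a sparsely covered step, they were 14.7% and 14.7% against 25.9% and 24.2%. In these 3 steps the siANP32B libraries lay close together and well above both controls. The end of the long arm was more variable: at 230 to 240 Mb, the most covered step, the shares were 46.7% and 40.6% in siControl and 57.3% and 43.5% in siANP32B, so the groups overlapped.

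Between 140 and 200 Mb the siANP32B libraries parted from each other. At 140 to 150 Mb the shares were 11.6% and 10.9% in siControl but 9.03% and 14.7% in siANP32B. At 160 to 170 Mb they were 30.3% and 31.7% against 26.7% and 35.3%, and at 180 to 190 Mb 14.8% and 17.7% against 13.5% and 24.01%. Replicate 1 of siANP32B fell below both controls in 5 of the 25 steps, and replicate 2 in 0. The gain over this stretch therefore rested on replicate 2, except at 170 to 180 Mb, where both siANP32B libraries were higher.

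**Figure D2:**
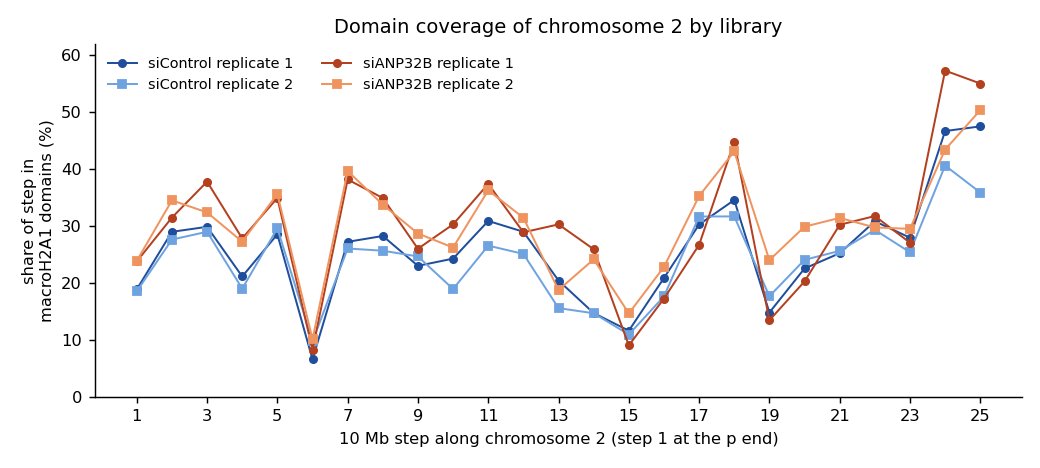
Share of each 10 Mb step of chromosome 2 in macroH2A1 domains (vertical axis, percent), from step 1 at the end of the short arm to step 25, which is shorter than the others, at the end of the long arm; each line is 1 library. Step 6 has the lowest mean siControl share (8.15%) and step 24 the highest (43.7%), and the siANP32B lines separate most from the siControl lines at step 7 (38.2% and 39.7% against 27.2% and 26.1%).

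Most of the domain sequence was common to the groups. Both siControl libraries shared 46.3 Mb in 654 stretches and both siANP32B libraries 55.8 Mb in 474. Of the sequence shared by the siControl libraries, 85.3% also lay in domains of both siANP32B libraries (82.4% over all chromosomes), and 39.4 Mb was in domains of all 4. The base-pair Jaccard index, the shared part of the sequence that either of a pair of lists covers, was 0.644 for the siControl pair and 0.644 for the siANP32B pair. Between libraries of different groups it ran from 0.577 to 0.620, so libraries of 1 group were more alike than libraries of different groups in all 4 cross pairs.

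The longest stretches that both siControl libraries shared stayed in domains after siANP32B. The longest, 870 kb, spanned chr2:225877001-226747000 and lay within single domains of 1075, 870, 1070 and 1037 kb. It reached IRS1, the adaptor that carries signals from the insulin receptor, but most of it lay outside that gene. All 10 tested regions within the stretch were called lower in the authors' deposited table, with log2 folds from -0.53 to -1.11. None of these regions overlapped IRS1 or another protein-coding gene. The next, 536 kb over MYO3B, which encodes an unconventional myosin, spanned chr2:170091001-170627000 and lay in domains of 538, 537, 729 and 619 kb. All 5 regions tested there were also called lower in the authors' deposited table. A 499 kb stretch, chr2:215435001-215934000, reached only the edge of the fibronectin gene FN1 and lay in domains of 501, 506, 537 and 508 kb. At MYO3B and at this stretch both siANP32B domains were longer than both siControl domains. At the latter, 4 of 6 tested regions were called lower in the authors' deposited table.

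Another of the 5 longest lay in domains that grew. At INHBB, a subunit of inhibin and activin, and GLI2, a transcription factor of the Hedgehog pathway, a 452 kb stretch (chr2:120305001-120757000) lay in domains of 452 and 463 kb in siControl and of 1059 and 1021 kb in siANP32B. Both siANP32B domains exceeded both siControl domains there.

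At INHBB and GLI2 the lengthening was a merger. The 1021 kb that both siANP32B libraries covered as 1 domain each, chr2:120315001-121336000, held 3 and 4 separate domains in siControl, which covered 89.8% and 88.1% of it. It extends to TFCP2L1, a transcription factor gene active in pluripotent cells and kidney. The authors' deposited table tests 13 regions there, of which 5 were called lower and 2 higher. The lower ones lay toward INHBB and GLI2, with log2 folds in the authors' deposited table of -0.47, -0.99, -0.88, -0.95 and -0.68. The 2 higher ones lay beyond them, at chr2:121005001-121054000 (1.00) and at TFCP2L1, chr2:121200001-121218000 (0.75), both log2 folds of the authors' deposited table. The single siANP32B domain thus held called regions of both signs.

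A like merger lay around ID2, which encodes an inhibitor of basic helix-loop-helix transcription factors, and was chosen after its values were seen. The 978 kb at chr2:7742001-8720000 was 1 domain in each siANP32B library (991 and 1035 kb) and 4 domains in each siControl library, which covered 92.3% and 93.5% of it. Of the 7 regions tested inside it in the authors' deposited table, 4 were called lower, with log2 folds of -0.57, -0.59, -0.96 and -0.96.

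Over the whole chromosome, 15.8% to 22.4% of siANP32B domains overlapped 2 or more domains of a siControl library, whereas 3.80% to 5.94% of siControl domains overlapped 2 or more of a siANP32B library. Within a group the corresponding shares were 14.3% and 8.12% for the siControl pair and 9.93% and 10.9% for the siANP32B pair. The span of siANP32B domains over several siControl domains was thus above each within-group value. Longer domains can span more, and the part of length in these shares was not tested.

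Sequence in domains of both siANP32B and neither siControl library came to 6.63 Mb in 367 stretches. The reverse, in both siControl and neither siANP32B library, came to 1.89 Mb in 122. Chromosome 2 held 14.5% of the 45.9 Mb of siANP32B-only and 9.74% of the 19.4 Mb of siControl-only sequence of all chromosomes. Each of these totals needs agreement of both libraries, so with 1 library of a group left out they rise to 10.7 to 15.3 Mb and 4.06 to 5.51 Mb.

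The gained sequence lay mostly at the rims of existing domains. Of the 367 siANP32B-only stretches, 318 touched a siControl domain: 256 extended it at 1 end (4.23 Mb) and 62 filled a gap between a pair of domains (0.799 Mb), together 75.8% of the length. The other 49 (1.60 Mb) stood apart. Of the 122 siControl-only stretches, 49 stood apart from siANP32B domains and these made up 63.1% of the length, 65 were edges and 8 were gaps. By 10 Mb step, the siANP32B-only sequence was highest at 170 to 180 Mb (0.572 Mb), 130 to 140 Mb (0.563 Mb) and 60 to 70 Mb (0.554 Mb). The siControl-only sequence was highest at 190 to 200 Mb (0.258 Mb).

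**Figure D3:**
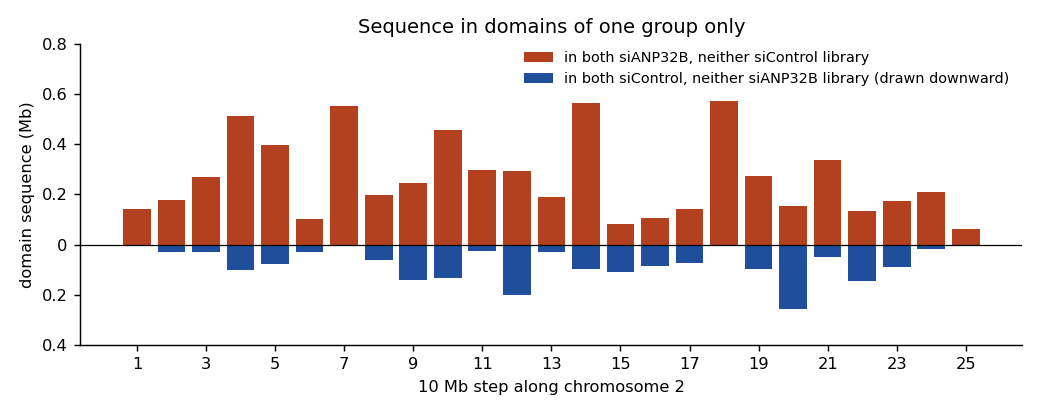
Length of sequence in domains of both libraries of 1 group and neither of the other (vertical axis, Mb) in each 10 Mb step of chromosome 2; siANP32B-only sequence is drawn upward and siControl-only sequence downward. The highest upward bars are at steps 18, 14 and 7 (0.572, 0.563 and 0.554 Mb) and the longest downward bar at step 20 (0.258 Mb).

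Of the 5 longest siANP32B-only stretches, 3 extended siControl domains. The longest, 167 kb at chr2:60591001-60758000, ended in PAPOLG, a poly(A) polymerase gene, whose body was covered over 0% and 0% in siControl and 12.8% and 10.6% in siANP32B. The second of this kind, 132 kb at chr2:44842001-44974000, took in SIX3, a homeobox gene of the forebrain and eye, covered over 0% in both siControl and 100% in both siANP32B libraries. The third, 112 kb at chr2:201854001-201966000, lay on CDK15, of the cyclin-dependent kinase family, covered over 14.4% and 41.1% in siControl and wholly (100%) in both siANP32B libraries. In each gene the siANP32B values were above both siControl values. The genes were named for overlapping siANP32B-only stretches, so this order is no separate evidence.

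The remaining 2 stood apart from any siControl domain. A 137 kb stretch at chr2:30165001-30302000 held LBH, a transcription cofactor gene named for limb bud and heart, which was covered over 0% in both siControl and 100% in both siANP32B libraries. Its domain in siANP32B replicate 2 had a score of 10.2, the lowest of that library on the chromosome, against 35.2 in replicate 1. A 108 kb stretch at chr2:174515001-174623000 lay on WIPF1, which encodes a partner of the WASP actin regulators, covered over 0% in both siControl libraries and over 100% and 51.6% in siANP32B. The siANP32B domains over this stretch had scores of 21.6 and 12.7. The score in replicate 2 was below the lowest of each siControl library on the chromosome (18.9 and 22.8). None of these 5 stretches held a region of the authors' deposited table, so no fold is given for them.

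The longest siControl-only stretch, 101 kb at chr2:31715001-31816000, held no protein-coding gene, the nearest being MEMO1 at 51.8 kb. An 80 kb stretch at chr2:190537001-190617000 reached NEMP2, a nuclear envelope protein gene, covered over 50% and 53.9% in siControl and 26.3% and 13.6% in siANP32B. A 52 kb stretch at chr2:197126001-197178000 lay in ANKRD44, an ankyrin repeat gene, covered over 59.3% and 23.3% against 5.5% and 16.9%. A 49 kb stretch at chr2:214389001-214438000 reached VWC2L, covered over 16.1% and 17.3% against 0% and 0%, and a 51 kb stretch lay 20.9 kb from SCG2, the gene of the granule protein secretogranin. The groups did not overlap for NEMP2, ANKRD44 or VWC2L. These genes were named for holding siControl-only stretches, so the lack of overlap is no separate evidence. The siControl-only stretches named here were shorter than the 5 longest siANP32B-only ones.

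Within the domains, the authors' deposited table shows mostly lower macroH2A1 signal on chromosome 2 after siANP32B. Called regions are those with a false discovery rate under 0.05, adjusted over the whole table. Of the 327 on the chromosome, the authors' deposited table calls 215 lower (65.7%, against 58.4% of all 4474 regions) and 12 higher (3.67%, against 3.82%). With a limit of 0.01 the authors' deposited table calls 170 lower and 8 higher, against 42.5% and 2.79% of all regions. One more, over the T cell co-receptor gene CD28, had windows of both signs, and 99 were not called. By the authors' deposited table the median log2 fold of all regions of the chromosome was -0.55, with 89.3% below 0. Over all chromosomes that median was -0.54, so chromosome 2 was near the rest in this respect. A change in the scaling of libraries would move all folds together, and the scaling used by the authors is not given.

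The strongest fall lay at ABCB11, which encodes the pump that moves bile salts out of hepatocytes. In the authors' deposited table the 21 kb at chr2:169002001-169023000 had a log2 fold of -1.49 (false discovery rate 5.54e-16), with 12 of 12 windows down. A second ABCB11 region in the authors' deposited table, chr2:168967001-168984000, had a log2 fold of -0.64 (false discovery rate 0.00258). Domains nevertheless covered 95.7% and 93.2% of the gene in siControl and all of it (100%) in each siANP32B library. The gene thus stayed in a domain while the signal of its tested regions was called lower.

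KCNH7, a voltage-gated potassium channel gene, held a 59 kb region with a log2 fold of -1.23 in the authors' deposited table (false discovery rate 3.99e-12) and 37 of 38 windows down. SCN1A, a voltage-gated sodium channel gene, had a log2 fold of -1.16 in the authors' deposited table (false discovery rate 4.33e-09) over a 21 kb region, 11 of 11 windows down, of which 8.16 kb lay in the gene. CCDC148, a coiled-coil protein gene, had a log2 fold of -1.17 in the authors' deposited table, with 56 of 56 windows down over 81 kb. These 3 regions were lower in nearly every window. For ERBB4, a neuregulin receptor gene (-1.13), DNAH6, an axonemal dynein gene (-1.06), and DRC11, a gene of the ciliary dynein regulatory complex (-1.05), the log2 folds in the authors' deposited table also exceeded 1 in size. The ERBB4 and DNAH6 regions were outside any domain in siANP32B replicate 1 but fully inside one in the other 3 libraries, and the DRC11 region was outside any domain in siANP32B replicate 2.

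IL1R2, the decoy receptor for interleukin-1, was the seventh gene by p-value: its 14 kb region, chr2:101995001-102009000, which holds the CpG-poor promoter printed above, had a log2 fold of -1.01 in the authors' deposited table. Regions of each call lay partly outside genes. Of the 215 lower regions of the authors' deposited table, 151 overlapped no protein-coding gene, and 44 had 50% or more of their length in one. No protein-coding gene was overlapped by 60 of the 99 regions not called and 5 of the 12 called higher. Among the lower regions outside genes, chr2:19473001-19505000, 114 kb from OSR1, had a log2 fold of -1.24 in the authors' deposited table. Another at chr2:237284001-237301000, 23.02 kb from COL6A3, also had -1.24 in the authors' deposited table. They are given as examples chosen after their values were seen.

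Of the 12 higher regions, 7 overlapped a protein-coding gene. AFF3, of the AF4 family of nuclear proteins, held the region with the largest log2 fold in the authors' deposited table (1.29, false discovery rate 2.50e-09), chr2:100055001-100085000, with 20 of 20 windows up. TCF7L1, a TCF/LEF transcription factor of the Wnt pathway, had a log2 fold of 1.18 in the authors' deposited table, with 7 of 7 windows up. SLC25A12, the mitochondrial aspartate-glutamate carrier, had a log2 fold of 1.16 in the authors' deposited table over chr2:171881001-171905000, with 15 of 15 windows up. That region held the CpG-rich promoter printed above, and 13.2 of its 24 kb lay in the gene. Domains covered 11.6% and 10.7% of the SLC25A12 body in siControl against 27.7% and 43.8% of it in siANP32B. The sign of all folds was read from domain coverage of the higher regions of all chromosomes, this one included, so the like direction is no separate evidence.

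The other higher regions in genes were smaller. NXPH2, which encodes a neurexophilin, had a log2 fold of 0.79 in the authors' deposited table and TFCP2L1 one of 0.75. COLEC11, a secreted collectin gene, had 0.55 in the authors' deposited table and ACOXL, an acyl-CoA oxidase-like gene, 0.43, with a false discovery rate of 0.0421 near the threshold. The remaining 5 of the 12 lay 6.59 to 156 kb from the nearest protein-coding gene, among them chr2:72045001-72111000, 18.2 kb from CYP26B1, a retinoic acid hydroxylase gene, with a log2 fold of 0.50 in the authors' deposited table.

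**Figure D4:**
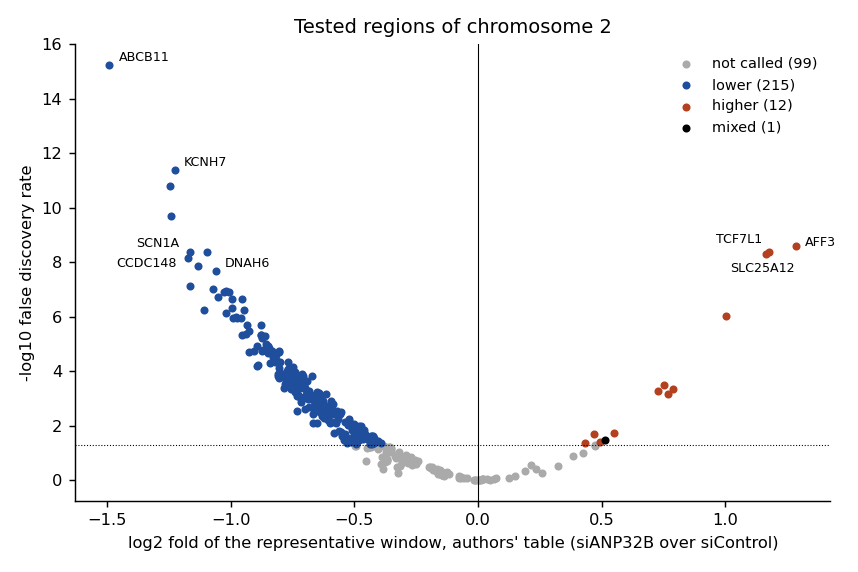
The 327 tested regions of chromosome 2 in the authors' deposited table: log2 fold of the representative window (horizontal axis) and -log10 of the false discovery rate (vertical axis), with 1 point per region coloured by call and a dotted line at a false discovery rate of 0.05. Of these, 215 lower regions fill the left arm with ABCB11 at its end (-1.49), and 12 higher regions the right arm with AFF3 at its end (1.29).

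Tested regions, called or not, lay inside domains in nearly every library. Of the 215 regions called lower in the authors' deposited table, 214 and 210 had 50% or more of their length in siControl domains, and 207 and 210 in siANP32B domains. Of the 99 regions not called, 98 and 98 had as much in siControl domains, and 98 and 99 in siANP32B domains. All 12 regions called higher in the authors' deposited table had 50% or more in domains of all 4 libraries, with 10 and 10 fully covered in siControl and 12 and 12 in siANP32B. The sign of the folds was read from domain coverage of higher regions, these 12 included. Their fuller cover in siANP32B is therefore no separate evidence. The tested regions covered 19.1% of the sequence shared by the siControl libraries, 0.106% of the siANP32B-only sequence and 0% of the siControl-only sequence. The folds of the authors' deposited table therefore say nothing of nearly all the sequence that entered or left domains. The lower signal within domains and the wider domains were measured on different sequence.

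A gene is called held here where 50% or more of its body lay in domains of both libraries of a group. Of 1254 protein-coding genes on chromosome 2, 252 (20.1%) were held in siControl and 324 (25.8%) in siANP32B, 218 of them in both. Per library the counts were 348 and 296 in siControl and 465 and 392 in siANP32B. Under 50% in both siControl and at or above it in both siANP32B libraries were 53 genes (4.23%), called gained. The reverse held for 3 genes (0.239%), and 328 genes had no domain in any library.

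The 3 lost genes were NEMP2, the readthrough gene RNF103-CHMP3 (57.1% and 52.5% against 42.9% and 41.1%) and CMKLR2, a receptor gene for the protein chemerin (93.0% and 100% against 0% and 0%). CMKLR2, whose promoter is printed above, was thus the only gene that went from at least 90% in both siControl libraries to 0% in both others. Among the gained genes, LBX2, PCGF1, TLX2, DQX1, AUP1 and HTRA2 lie side by side and each went from 0% in both siControl to 100% in both siANP32B libraries. LBX2 and TLX2 are homeobox genes, PCGF1 a Polycomb-group RING finger gene and HTRA2 a mitochondrial protease gene. HK2, a hexokinase gene, went from 25% and 48.3% to 68.3% and 55%, and SERPINE2, a serine protease inhibitor gene, from 12.3% and 0% to 100% and 66.2%. These examples, other than NEMP2, LBX2 and TLX2, were chosen after their values were seen.

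The 7 gene lists of chromosome 2 were set beside all its coding genes; every listed gene was found in the annotation. Of 39 housekeeping genes, for ribosomal, proteasome, respiratory and splicing proteins and the like, 0 were held in siControl, and none overlapped a tested region. In siANP32B 1 was held, ODC1, the ornithine decarboxylase of polyamine synthesis (0% and 0% against 100% and 100%). The median covered share over the list, taking the mean of the libraries of a group, was 0% in siControl and 5.81% in siANP32B, against 3.59% and 14.7% over all coding genes. Housekeeping genes thus lay below the chromosome's own median in both groups.

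Blood and immune genes were the most often held of the 7 lists in siControl by share. Of 32 such genes, 17 were held in siControl and 24 in siANP32B, with a median covered share of 71.5% and 100%. CD8B, of the T cell co-receptor CD8, GNLY, the cytotoxic protein granulysin, PDCD1, the T cell checkpoint receptor, IL1B, the cytokine interleukin-1 beta, CCL20, a chemokine, and CD28 were covered over 100% in all 4 libraries. CXCR4, the receptor of the chemokine CXCL12, and CTLA4, an inhibitory T cell receptor, went from 0% in both siControl to 100% in both siANP32B libraries. The siANP32B domains over CXCR4 had scores of only 14.4 and 13.8. Both are below the lowest score of each siControl library on the chromosome (18.9 and 22.8), so this gain rests on weak domains. IL18RAP, a subunit of the interleukin-18 receptor, went from 0% and 0% to 94.3% and 80%, and MARCO, a macrophage scavenger receptor, from 0% and 45.3% to 100% and 100%. In all, 6 of the 32 genes were gained and 0 lost, beside 53 gained (4.23%) of all 1254 coding genes. Some members are neighbours in 1 siANP32B domain, such as CD28 and CTLA4, or IL1RN, IL36A, IL36G and IL37. They are not separate observations. IFIH1, the sensor of viral RNA, was at 0% in all 4 libraries.

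Immune genes with tested regions mostly overlapped lower ones. Of the 9 with a tested region in the authors' deposited table, 8 overlapped a lower one and 0 a higher one. The ninth was CD28, whose region was of mixed direction with a log2 fold of 0.51 in the authors' deposited table. The log2 folds of the lower regions in the authors' deposited table were -1.01 at IL1R2, -0.72 at CCL20, -0.69 at STAT4, the transcription factor of interleukin-12 signalling, -0.68 at LY75, -0.67 at CD8B and -0.55 at SLC11A1, a metal transporter of phagocytes. IL1RL1 and IL18R1 overlapped the same region, with -0.66 in the authors' deposited table. Over all coding genes that overlapped a tested region, 80 of 118 overlapped a lower one and 7 a higher one.

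Among developmental transcription factors, 8 of 30 (26.7%) were held in siControl and 16 (53.3%) in siANP32B, against 20.1% and 25.8% of all coding genes. The median covered share of the list was 48.2% and 80.5%. Only 3 met the stricter rule for gained genes, SIX3, LBX2 and TLX2, beside 53 (4.23%) of all 1254 coding genes. For several others 1 siControl library decided: ZEB2, a repressor of epithelial genes, was covered over 0% and 92.7% in siControl and 92.0% and 76.6% in siANP32B. SIX2, a kidney progenitor factor, had 0% and 100% against 100% and 100%, and MYCN 100% and 0% against 100% and 100%. DLX1, DLX2, SP9, TWIST2 and PAX8 were at 100% in all 4 libraries, while SOX11, OTX1, TBR1 and KLF7 were at 0% in all 4. PAX8, a thyroid and kidney factor (-0.52), and GLI2 (-0.68) overlapped lower regions of the authors' deposited table, and no member a higher one.

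The HOXD cluster, whose genes set positions along the body axis and limbs, split by replicate number and not by siRNA. HOXD3, HOXD4, HOXD8, HOXD9, HOXD10, HOXD11 and HOXD12 were covered over 100% in replicate 1 of both groups and over 0% in replicate 2 of both. HOXD13 was covered over 11.1% and 0% in siControl and 100% and 0% in siANP32B, and HOXD1 over 0% and 0% against 100% and 0%. None of the 10 genes of this list, EVX2 included, was held in either group, and none overlapped a tested region. The 10 genes lie in 1 cluster and share their domains, so they are not separate observations.

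Hepatocyte genes included fully covered and uncovered ones. Of 16, 7 (43.8%) were held in siControl and 7 in siANP32B, against 20.1% and 25.8% of all coding genes, and 0 were gained. UGT1A1, UGT1A4, UGT1A6 and UGT1A9, which conjugate bilirubin and drugs, AGXT, a peroxisomal aminotransferase, and FABP1, the liver fatty acid-binding protein, were covered over 100% in all 4 libraries. The UGT1A genes share 1 locus and their last exons, and so 1 domain. Their region in the authors' deposited table, chr2:233710001-233817000, had a log2 fold of -0.43. Of its 98 windows, 20 were counted as down and 0 as up, and the rest as neither. By contrast ABCG5 and ABCG8, the sterol transporters, and GCKR, the glucokinase regulator, were at 0% in all 4 libraries. APOB, the main protein of low-density lipoprotein, was covered over 18.2% and 20.5% in siControl against 6.82% in each siANP32B library. The region chr2:21043001-21070000, with a log2 fold of -0.50 in the authors' deposited table, overlaps APOB only up to chr2:21044073. All 6 hepatocyte genes with a tested region in the authors' deposited table overlapped a lower one, against 80 of 118 over all coding genes. The 4 UGT1A genes among them share 1 region, so these are not 6 separate observations.

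Of 29 ion channel and neuronal genes, 5 (17.2%) were held in siControl and 5 in siANP32B, against 20.1% and 25.8% of all coding genes. Their median covered share was 6.37% and 9.36%, above the 3.59% of all coding genes in siControl and below the 14.7% in siANP32B. The potassium channel genes KCNF1 and KCNK3 and the acetylcholine receptor gene CHRND were at 100% in all 4 libraries. The receptor gene CHRNG was the 1 gained member (10% and 0% against 100% and 100%). Of the 7 members with a tested region, ERBB4, SCN1A, KCNH7, KCNK3 (-0.66) and SCN7A (-0.87) overlapped lower regions of the authors' deposited table. The other members, SCN3A (0.26) and CNTNAP5 (-0.15), had regions of that table that were not called. Among all coding genes with a tested region, 80 of 118 overlapped a lower one.

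Of 16 matrix and integrin genes, 6 (37.5%) were held in each group, against 20.1% and 25.8% of all coding genes. COL4A4, a basement membrane collagen gene, was gained (48.5% and 35.4% against 92.4% and 78.8%). IGFBP2 and IGFBP5, which bind insulin-like growth factors, and DES, the muscle filament protein desmin, were at 100% in all 4 libraries. The integrin subunit gene ITGB6 was covered over 80.4% and 52.0% in siControl but over 0% and 100% in siANP32B, so the siANP32B libraries disagreed. ITGA4 was at 0% in all 4 libraries. Coverage of the FN1 body, beside the long stretch described above, was 5.19% and 11.7% for siControl against 42.9% and 25.97% for siANP32B. No member overlapped a called region.

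**Figure D5:**
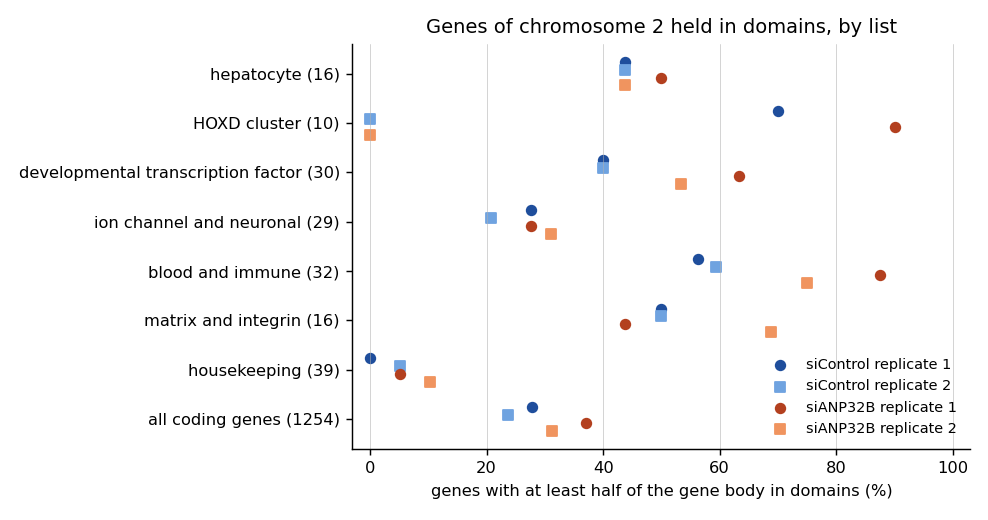
Share of the genes of each list with at least 50% of the gene body in domains (horizontal axis, percent), per library, with the number of genes in brackets. All 4 libraries of the housekeeping list lie below those of all coding genes, both siANP32B points of the immune and developmental lists lie right of both siControl points, and the HOXD points split by replicate.

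The domains lay outside genes more than the chromosome as a whole. Protein-coding gene bodies make up 43.2% of chromosome 2 but 30.4% of the sequence shared by the siControl libraries and 28.3% of that in all 4 libraries. Sequence outside any annotated gene makes up 40.3% of the chromosome and 51.3% of the shared siControl sequence. The sequence that differed between the groups was richer in gene bodies, at 40.3% of the siANP32B-only and 45.3% of the siControl-only sequence. Of the stretches, 208 of the 367 siANP32B-only and 55 of the 122 siControl-only ones overlapped a coding gene.

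Promoters were described by CpG number over 300 bases, 250 before to 50 after the gene start, for the 1108 of 1254 coding genes with a RefSeq sequence. The median was 23 CpG over all of them, 20 over the 317 (28.6%) in domains of both siControl libraries and 24 over the 406 (36.6%) in no domain. The 45 promoters in siANP32B-only sequence had a median of 23, and the 7 in siControl-only sequence, CMKLR2 among them, one of 15. The last rests on few promoters, and the others lie close together. The 27 promoters inside a lower region of the authors' deposited table had a median of 6 CpG and 55.3% G and C, against 63.7% over all promoters. At CCL20, UGT1A4 and IL1R2 the 300 bases held 3, 4 and 1 CpG, whereas SLC25A12, in its higher region, held 47.

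Searched on both strands, GGGCGG, the core of the GC box, was in 59.7% of all promoters of this length and in 33.3% (9 of 27) of those in lower regions of the authors' deposited table. CCAAT was in 35.4% and 48.1% (13 of 27), and TATAAA in 7.58% and 18.5% (5 of 27). In domains of all 4 libraries, where nearly all lower regions lie, the shares were 57.0% for GGGCGG, 34.6% for CCAAT and 12.5% for TATAAA. None of the 3 motifs holds another, although CCAAT and TATAAA can share an end letter. The SLC25A12 promoter held GGGCGG, that of CCL20 both CCAAT and TATAAA, and those of UGT1A4 and IL1R2 CCAAT. Promoters that share a locus, such as those of the UGT1A genes, are not independent of each other.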

How the data were processed

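Anti-macroH2A1 CUT&RUN libraries of HepG2 cells were used, 2 per siRNA. The submitters' processing notes name SICER, edgeR, Bowtie2, SAMtools, deepTools and Trim Galore and the build hg38. Nothing on versions, settings, scaling or the control for domain calling was given in the sources used here. Each library has 1 deposited domain list with a score per domain, whose scale is not stated. The authors' deposited table holds per region a p-value with its false discovery rate, the log2 fold of a representative window (read as log2 after edgeR's convention) and counts of windows, not of reads. The windows counted there as up or down are not all windows of that sign. For example, chr2:7924001-7934000 had 1 window and a log2 fold of -0.02 but 0 windows down. The authors' deposited table has 0 columns with values per sample, so no refit was made. Its false discovery rates equal a Benjamini-Hochberg adjustment over all 4474 regions of that table (largest difference 1.11e-15). The table gives no order of the groups. The sign was settled from all chromosomes: of regions called higher, domains covered 50% or more in 88.3% and 80.7% for the siControl libraries and in 99.4% for each siANP32B library.

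Domains were placed on a 1 kb grid (Python 3.11.15, pandas 2.3.3, numpy 2.4.6), and chromosomes were counted up to the last gene, tested region or domain on them. Gene spans and promoters came from RefSeq, GRCh38.p14, as spans without exons, so exon, intron and UTR positions are not given. Values per library were compared by an exact permutation test (two-sided). Overlap scripts were tested on simulated data. Without read totals no counting interval is given.

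Named genes were those with the longest overlap with the 8 lower and 8 higher regions of smallest p-value in genes (only 7 higher regions overlapped one), genes of the 5 longest stretches of each kind, and for each list up to 6 members by siControl cover and every member in a called region; other genes named were chosen after their values were seen. The members, gene lists and rules were chosen with earlier results of these data known. Alternatives were other score, length and joining rules, gene cover minimums, stricter calls, 5 Mb steps and leaving out each library. Some genes that the rule takes are not reported here.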

Additional observations from a re-analysis of the deposited data

How the results depend on the processing

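Of 58 alternative values, 10 moved and 3 reversed. Another 8 could not move, since no gap between domains was under 5 kb and a balanced block leaves mean differences as they are. Differences in domain number, covered length, median length and share were judged by sign alone. Sequence in 1 group only, counts of regions and genes, and steps were judged by the size of their change. By these rules the other 37 counted as unchanged. Even so, with an equal number of best-scored domains the difference in covered length rose from 12.1 to 24.2 Mb. That in share rose from 3.06 to 6.52 points. The 3 reversals came from the caller's score: keeping an equal number of best-scored domains per library gave 12 more chromosome 2 domains after siANP32B in place of a difference of -174.5. Keeping domains above a common score turned covered length from 12.1 to -11.2 Mb and share against the other chromosomes from 3.06 to -1.86 points (exact permutation p = 0.667); the cause was not tested. SiANP32B-only sequence, 6.63 Mb, became 11.3 Mb with equal numbers of best-scored domains and 10.7 to 15.3 Mb with a library left out, since fewer lists then need to share it. SiControl-only sequence, 1.89 Mb, became 0.496 Mb and 4.06 to 5.51 Mb likewise. With a library left out, the difference in domain number ran from -211.5 to -137.5, in covered length from 10.4 to 13.9 Mb, in median length from 29.0 to 38.5 kb and in share from 2.70 to 3.41 points. Without chromosomes 6, 14, 16, 17 and 20, of which HepG2 is known to carry extra copies in whole or in part (an alternative chosen after seeing the data), the difference in share was 3.53 points. With a limit of 0.01 on the false discovery rate, the authors' deposited table has 170 lower and 8 higher regions on chromosome 2.

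A replicate block, pairing libraries of the same number, left the differences at -174.5 domains, 12.1 Mb, 33.8 kb and 3.06 points (exact sign-flip p = 0.5, the smallest for 2 pairs). Deviations of same-numbered libraries from their group means had a Pearson correlation of 0.307 over 243 steps of 1 Mb, and with 2 pairs the pairing is not established. Unknown depth limits what number and length of domains can show.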

Other observations

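Long non-coding RNA genes and pseudogenes of chromosome 2 were held in larger shares than its protein-coding genes (20.1% in siControl), and miRNA genes in a smaller one; these differences were not tested. Of 1469 long non-coding RNA genes, 442 (30.1%) were held in siControl and 520 (35.4%) in siANP32B, with 52 gained and 18 lost. Of 1141 pseudogenes, 297 (26.03%) were held in siControl and 372 in siANP32B. Of 117 miRNA genes, 21 (17.9%) and 24 were held.

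The longest stretch of chromosome 2 with no annotated gene, 2156 kb at chr2:92036001-94192000 where the centromere lies, was covered over 40.4% and 35.5% in siControl and 43.3% and 52.9% in siANP32B. The next, 1080 kb at chr2:90362001-91442000, was covered over 0% in all 4 libraries, as were those at chr2:124990001-125706000 and chr2:123074001-123695000. The 664 kb at chr2:59695001-60359000 was covered over 2.86% and 1.05% in siControl and 22.3% and 7.53% in siANP32B. How well reads map to these stretches, the one at the centromere included, was not measured. A share of 0% here therefore does not show that macroH2A1 was absent.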
